A study of Mus musculus with 12 samples.

Results

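The genes of sterol and fatty acid synthesis were followed across 6 mouse germline stem cell lines: the enzymes that build cholesterol from acetyl-CoA, the enzymes that make fatty acids, and the proteins that switch both sets on and off. A list of 29 symbols was looked up by name, and 28 of the 26219 genes of the expression table were members, since the methylsterol monooxygenase gene carries its older symbol Sc4mol there and not Msmo1. Levels are in RPM, reads scaled to a common library total. Of the 28, 27 reached 5 RPM in 2 or more libraries and were tested among 11788 such genes. The exception was Tm7sf2, a sterol reductase gene, which lay between 0.251 and 3.51 RPM, or 1 to 14 reads.

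The lines GSC_1 and GSC_2 are GSCs, that is, germline stem cells propagated from spermatogonia, and each came from its own testis at postnatal day 7. The GSC-like cells (GSCLCs) were grown out of reconstituted testes. Lines GSCLC_1 and GSCLC_4 belong to condition 1, in which those testes spent 3 weeks at 34°C, and lines GSCLC_2 and GSCLC_3 to condition 2, with 2 weeks at 37°C before 1 week at 34°C. All 6 lines share the C57BL/6 x 129/SvJcl background, the AcrAct_EGFP reporter and one medium, StemPro-34 with 1% FBS, AlbuMAX-II (a lipid-rich albumin) at 5 mg/ml, GDNF, bFGF, LIF and EGF. Each line gave 2 libraries from separate cultures, made from 1 ng of total RNA by SC3-seq, which sequences the 3′ ends of transcripts. The kind of line coincides with its testis of origin, and effects of the 2 cannot be told apart, and whether the GSCLC lines came from separate donor animals was not tested.

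Cholesterol is made in 3 stretches. Acetyl-CoA is turned into mevalonate and farnesyl pyrophosphate, farnesyl units are joined and closed into the ring of lanosterol, and lanosterol is trimmed into cholesterol. The membrane-bound SREBP transcription factors are released when sterol is scarce, with SCAP escorting them and the INSIG proteins holding them back, and they raise transcription of nearly all these enzymes, SREBP2 acting more on sterol genes and SREBP1c on fatty acid genes. In cells, membrane growth and the prenylation of signalling proteins draw on the same pathway.

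SREBPs bind sterol regulatory elements and usually act beside the general factors NF-Y, which binds the CCAAT box, and Sp1, which binds GC boxes. RefSeq promoters (GRCm38.p6, 250 bases before to 50 bases after the start) were matched by gene identifier for 22 of the 28 members and searched on both strands. The sterol element, searched as TCACNCCAC, was found in 1 of the 22, Hmgcs1 (4.5%, against 1.44% of 27025 genes with a promoter). The CCAAT box was found in 20 (90.9% against 41.1%), all but Acat2 and Scap. The GC box, searched as GGGCGG, was found in 20 (90.9% against 38.2%), all but Fasn and Pmvk. A gene with several promoters was counted if any of them held the motif, as for Dhcr7 and Insig2. The shares of all genes were not limited to expressed genes, while nearly all members were expressed. The bases upstream of the start are shown for Hmgcs1, the only one of the 22 to match the sterol element as searched. They are also shown for Srebf2 and Cyp51, which were low together in one line, and for Acly, which was high in that line. Capitals mark the matches to the 3 motifs, which do not overlap each other here.
Hmgcs1 lies at chr13:119690101-119690350 on the plus strand, Srebf2 at chr15:82147019-82147268 on the plus strand, Cyp51 at chr5:4104698-4104947 on the minus strand and Acly at chr11:100528001-100528250 on the minus strand.
Hmgcs1: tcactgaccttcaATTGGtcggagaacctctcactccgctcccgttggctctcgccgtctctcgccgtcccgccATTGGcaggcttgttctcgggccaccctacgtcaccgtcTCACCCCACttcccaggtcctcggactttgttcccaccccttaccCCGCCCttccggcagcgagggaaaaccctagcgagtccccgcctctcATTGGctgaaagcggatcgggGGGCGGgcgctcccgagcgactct
Srebf2: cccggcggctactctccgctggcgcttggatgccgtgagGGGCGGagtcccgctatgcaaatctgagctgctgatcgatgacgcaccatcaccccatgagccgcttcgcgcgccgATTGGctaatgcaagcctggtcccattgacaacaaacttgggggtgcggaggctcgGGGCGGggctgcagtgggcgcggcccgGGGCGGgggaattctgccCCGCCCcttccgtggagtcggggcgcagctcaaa
Cyp51: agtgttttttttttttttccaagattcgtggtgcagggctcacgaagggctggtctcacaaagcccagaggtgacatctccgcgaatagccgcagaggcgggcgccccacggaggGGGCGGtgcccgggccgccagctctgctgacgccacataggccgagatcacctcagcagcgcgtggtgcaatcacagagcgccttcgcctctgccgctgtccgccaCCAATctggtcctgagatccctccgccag
Acly: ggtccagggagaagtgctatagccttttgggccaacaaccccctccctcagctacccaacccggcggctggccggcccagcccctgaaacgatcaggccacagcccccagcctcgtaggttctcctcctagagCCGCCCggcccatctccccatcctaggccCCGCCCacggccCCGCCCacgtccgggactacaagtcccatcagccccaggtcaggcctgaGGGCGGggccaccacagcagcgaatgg
The sterol element of Hmgcs1 begins 137 bases upstream of the start and stands between CCAAT boxes at 176 and 45 bases. Srebf2 and Cyp51 each hold 1 CCAAT box in the stretch shown, at 135 and 29 bases. Acly holds 4 GC boxes there and no CCAAT box, its CCAAT box lying past the start. A match describes letters only and was not tied to binding in these cells. The search misses variants of the sterol element, so a promoter without a match may still hold one.

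The step between low RPM values implies 3031705 to 4644181 counted reads per library, and 3 reads, the limit that a count of 0 allows, amount to 0.646 to 0.99 RPM (counting error only). Germ cell markers summed to 3399 to 3974 RPM in GSC and 3271 to 3941 RPM in GSCLC libraries. Markers of steroid-making Leydig cells, which are themselves rich in this pathway, summed to 11.7 to 109 RPM over 8 genes in GSC libraries against 4 to 8.44 RPM in GSCLC libraries. Their part in the GSC levels below was not tested. Among them Cyp11a1 stood at 36.2 and 3.23 RPM in GSC_1 and 60.1 and 2.3 RPM in GSC_2, replicate 1 first. Hsd3b1 followed it, at 34.2 and 2.8 RPM, then 36.7 and 3.83 RPM, and was at 0 in every GSCLC library. Insl3, too low to be tested, went the other way, with line means averaging 1.38 RPM for GSC against 3.27 RPM for GSCLC. Star reached 11.3 RPM in GSC_2 replicate 1, but its other GSC values (3.91 to 4.09 RPM) lay inside the GSCLC range (0.99 to 5.39 RPM). Cyp17a1, Lhcgr and Hsd17b3 were at 0 in every library. Fibroblast markers summed to 410 to 999 RPM in GSC and 326 to 660 RPM in GSCLC libraries, and Sertoli markers to 35.2 to 142 and 22.1 to 52.1 RPM, with Amh at 0 in every library. The Sertoli sum hides opposite directions among the 3 of its genes tested by limma between GSCLC and GSC line means. Clu was lower in GSCLC lines (log2 difference -1.79 ± 0.32, adjusted p = 0.0131). Wt1 (1.48 ± 0.57, adjusted p = 0.209) and Inha (0.66 ± 0.33, adjusted p = 0.343) had positive estimates. Wt1 was highest in GSCLC_2, at 29.8 and 20.1 RPM. In bulk RNA, fewer cells of a type and less RNA per cell cannot be told apart.

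**Figure D1:**
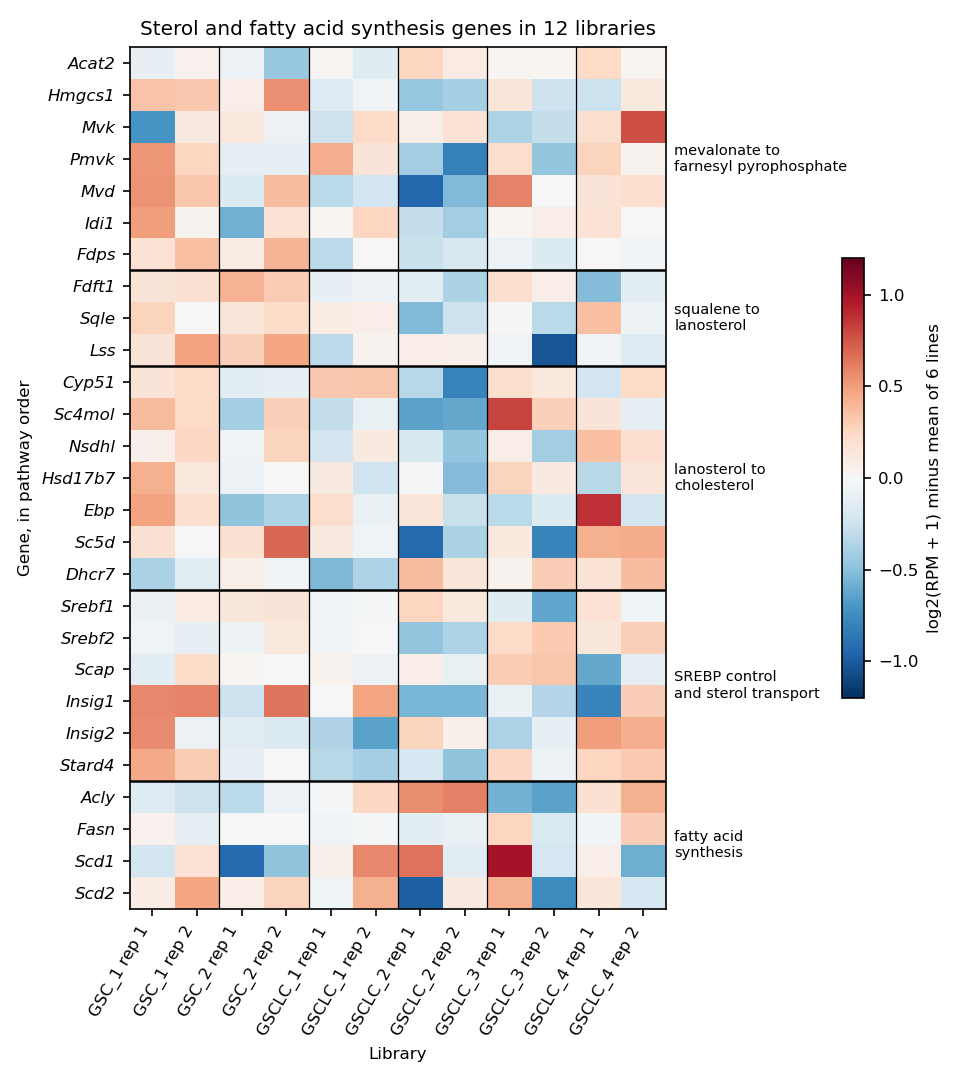
Each cell is log2(RPM + 1) of a gene in 1 of the 12 libraries minus that gene's mean over the 6 lines, with genes in pathway order and horizontal rules between role groups. Both GSCLC_2 columns are blue over most sterol enzymes and red for Acly.

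Apart from Tm7sf2, every sterol enzyme listed was detected in every library, from Acat2, which condenses acetyl-CoA, through Dhcr7, which makes cholesterol from its last precursor. The summed level of the 18 sterol enzymes present was 1420 and 1405 RPM in GSC_1, 1247 and 1430 in GSC_2, 1154 and 1229 in GSCLC_1, 1039 and 1003 in GSCLC_2, 1333 and 1160 in GSCLC_3 and 1256 and 1244 in GSCLC_4. GSCLC_2 had the lowest sums, below all 10 other libraries, and the GSC and GSCLC libraries overlapped. The mean over lines was 1375 ± 52.3 RPM (SD, n = 2) for GSC and 1177 ± 108 RPM (SD, n = 4) for GSCLC lines, or 85.6% of the GSC level. As members were chosen with earlier results known, this sum is given without a test.

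Between the kinds of line, no single member passed the test. In limma on line means of log2(RPM + 1), 0 of 27 members differed between GSCLC and GSC lines, where 356 of 11788 genes (3.02%) did. At an unadjusted p under 0.05 there were 5 of 27 members, where 16.9% of all genes tested reached that level. The estimate was negative for 19 of 27 members and 13 of the 17 sterol enzymes tested, against 50.8% of all genes, with a median log2 difference of -0.18 over members, -0.20 over sterol enzymes and -0.01 over all genes. Line means did not overlap for 4 of 27 members (14.8%), all lower in GSCLC lines. Of all genes, 28.6% did not overlap in either direction and 14.9% were lower without overlap, a share close to that of members. With the GSC lines taken from replicate 2 alone, 18 of 27 estimates were negative with a median of -0.14, and Fdps passed (adjusted p = 0.044). In those libraries, GSC_1 first, the Leydig markers summed to 12.1 and 11.7 RPM and the fibroblast markers to 410 and 999 RPM. GSCLC libraries had sums of 4 to 8.44 and 326 to 660 RPM for these lists. The part of either cell type in these estimates was not tested.

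Those 4 were Hmgcs1, Fdps, Fdft1 and Lss. Hmgcs1, the synthase that commits acetyl units to the mevalonate pathway, stood at 153 and 151 RPM in GSC_1, 127 and 176 in GSC_2, 108 and 116.5 in GSCLC_1, 87.25 and 91.3 in GSCLC_2, 133 and 100.8 in GSCLC_3, and 100.7 and 131 in GSCLC_4. The single libraries overlapped, since GSC_2 replicate 1 lay below both GSCLC_3 replicate 1 and GSCLC_4 replicate 2, although the line means did not. Its log2 difference was -0.49 ± 0.14 (SE, limma adjusted p = 0.093). Without GSC_2 replicate 1 that became -0.60 with adjusted p = 0.0482.

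Fdps, the synthase of farnesyl pyrophosphate, was 294 and 335 RPM in GSC_1, 277 and 345.5 in GSC_2, 210 and 261 in GSCLC_1, 217 and 227 in GSCLC_2, 247 and 232 in GSCLC_3, and 260.5 and 253 in GSCLC_4. Every GSC library exceeded every GSCLC library. The log2 difference was -0.39 ± 0.11 (adjusted p = 0.0892), and it passed in a fit of single libraries with line as a random effect (adjusted p = 0.0494). The 3′ end of Fdps shares 537 of its 776 annotated stretches of 50 bases with the overlapping gene Gm43738 and 409 with the pseudogene Gm3571, so its reads may have been divided among copies.

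Fdft1, which joins farnesyl units into squalene, was ordered from the highest line mean to the lowest as GSC_2 at 212 and 195 RPM, GSC_1 at 176 and 179, GSCLC_3 at 182 and 167, GSCLC_1 at 148 and 150, GSCLC_2 at 144 and 121, and GSCLC_4 at 110 and 143. GSCLC_3 overlapped GSC_1, and the other 3 GSCLC lines lay below both GSC lines. The log2 difference was -0.40 ± 0.15 (adjusted p = 0.199). Lss, the cyclase that closes the sterol ring, was 15.3 to 19.6 RPM in GSC and 6.2 to 14.5 RPM in GSCLC libraries without overlap, at -0.52 ± 0.24 (adjusted p = 0.29). Its lowest library held 23 reads.

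Insig1, which retains SCAP and the SREBPs in the endoplasmic reticulum, was 95.5 and 97.1 RPM in GSC_1, 53.2 and 100.3 in GSC_2, 63.6 and 88.9 in GSCLC_1, 43.4 and 43.3 in GSCLC_2, 60.5 and 49.9 in GSCLC_3, and 36.6 and 78.5 in GSCLC_4. Replicates differed most in GSC_2 and GSCLC_4, and the libraries of the 2 kinds overlapped. At -0.58 ± 0.21 (adjusted p = 0.172), it had the lowest estimate among members, and without GSC_2 replicate 1 it was -0.81 with adjusted p = 0.0465. Scd1, the desaturase that makes oleate and palmitoleate, had the highest, at 0.54 ± 0.27 (adjusted p = 0.336), from 7.63 to 17.4 RPM in GSC and 9.89 to 31.7 RPM in GSCLC libraries.

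**Figure D2:**
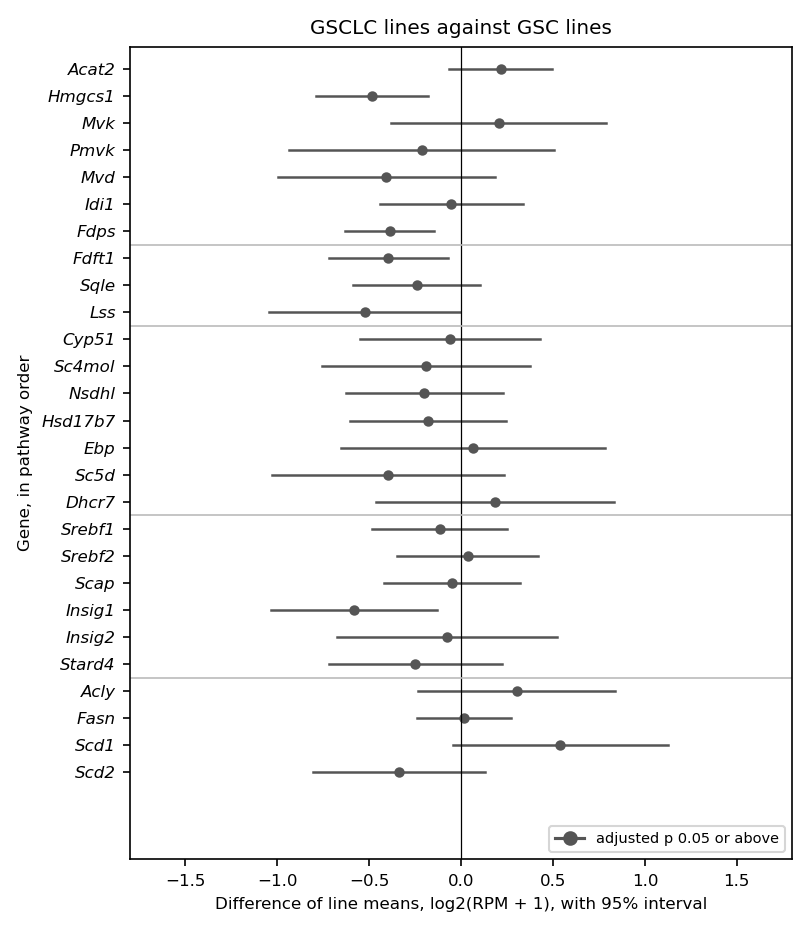
Points are the log2(RPM + 1) difference between the 4 GSCLC and the 2 GSC line means for the 27 tested genes in pathway order, and bars are 95% intervals from limma. The intervals of Hmgcs1, Fdps, Fdft1, Lss and Insig1 lie below 0, and no adjusted p is under 0.05.

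The sharper differences lay between single lines. Tested on single libraries against the spread between culture replicates, 9 of 27 members (33.3%) differed among the 6 lines, where 20.0% of all genes did, and 5 of 27 (18.5%) among the 4 GSCLC lines, where 9.14% did. The 9 were Hmgcs1, Mvd, Fdps, Fdft1, Cyp51, Sc4mol, Srebf2, Stard4 and Acly, and the 5 were Mvd, Cyp51, Sc4mol, Srebf2 and Acly. These p-values speak for these lines only. Acly passed in all 20 alternative settings tried, Sc4mol and Srebf2 in 18, Mvd and Fdft1 in 17, Cyp51 and Stard4 in 15, Hmgcs1 in 12 and Fdps in 7. Leaving out a single GSCLC_2 library ended the call for Mvd and Srebf2 (replicate 1), Cyp51 and Stard4 (replicate 2) and Hmgcs1 and Fdps (either), leaving out a GSCLC_1 library ended it for Cyp51 and Stard4 (either) and Hmgcs1 and Fdps (replicate 1), and leaving out a GSC library ended it for Fdft1 (GSC_2 replicate 1), Stard4 (GSC_1 replicate 1) and Hmgcs1 and Fdps (GSC_2 replicate 2 or either GSC_1 replicate). Fdps was also lost without either GSCLC_3 library. The median SD between lines was 0.30 on the log2 scale over members and 0.25 over all genes, and the median SD within a line was 0.22 and 0.24. GSCLC_2 was the lowest line for 15 of 27 members (55.6%) and 11 of 17 sterol enzymes, when it was lowest for 15.9% of all genes. GSC_1 was the highest line for 10 members (37%), against 14.5% of all genes, and the lowest for 0.

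**Figure D3:**
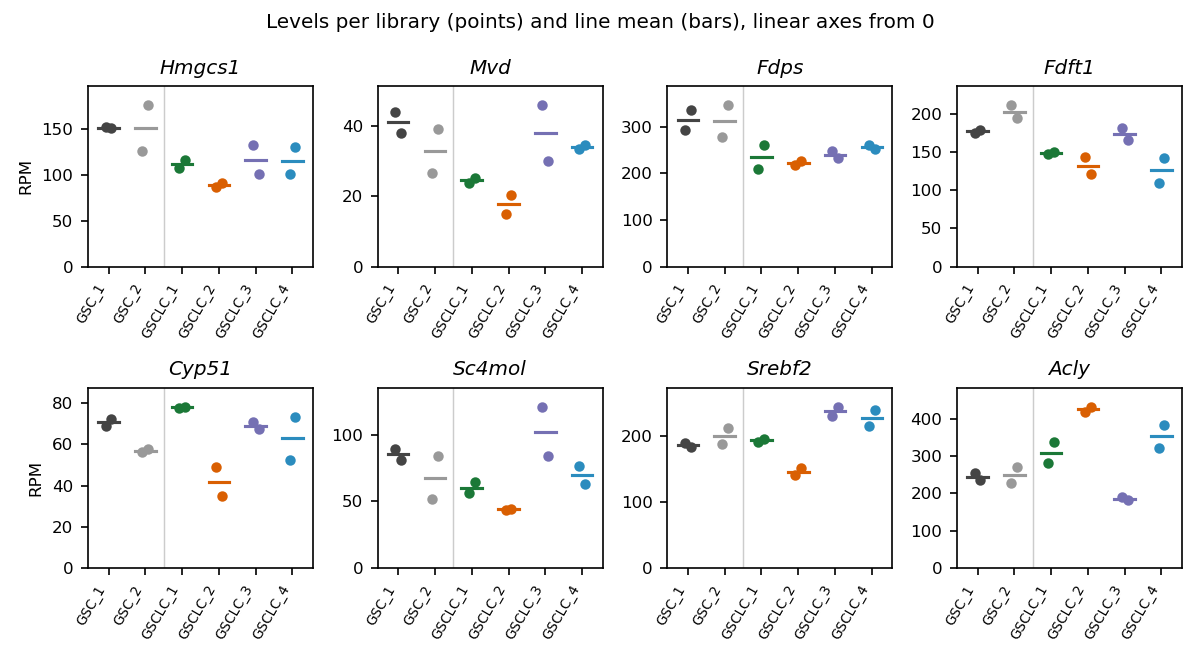
RPM of 8 genes in each library, with 2 points per line and a bar at the line mean, on linear axes that start at 0. GSCLC_2 is the lowest line for Hmgcs1, Mvd, Fdps, Cyp51, Sc4mol and Srebf2 and the highest for Acly.

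In the mevalonate branch, Mvd, the decarboxylase that makes isopentenyl pyrophosphate, was 44 and 37.9 RPM in GSC_1, 26.6 and 39 in GSC_2, 23.7 and 25.3 in GSCLC_1, 15 and 20.35 in GSCLC_2, 45.8 and 29.9 in GSCLC_3, and 33.3 and 34.6 in GSCLC_4. Both GSCLC_2 libraries lay below the other 10. The difference among the 6 lines had adjusted p = 0.0153 and that among GSCLC lines adjusted p = 0.0312. Acat2 ran against its branch, at 120 to 198 RPM with its highest line mean in GSCLC_2 (188 RPM) and its lowest in GSC_2 (139 RPM). The kinases Mvk and Pmvk were low, between 7.17 and 21.8 RPM and between 3.39 and 10.1 RPM, and Idi1, which isomerises isopentenyl pyrophosphate, ranged from 68.2 RPM in GSC_2 replicate 1 to 146 RPM in GSC_1 replicate 1. None of the 4 differed among lines (adjusted p = 0.155 to 0.325), and the 3′ end of Idi1 shares 354 of 800 stretches with the pseudogene Gm13502.

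In the ring-forming steps, Sqle, the epoxidase that is a second control point of the pathway, stood at 155 and 129 RPM in GSC_1, 142.5 and 150 in GSC_2, 136 and 136 in GSCLC_1, 88.5 and 107.5 in GSCLC_2, 129.5 and 102 in GSCLC_3, and 165 and 123 in GSCLC_4. GSCLC_2 was lowest by its mean but overlapped GSCLC_3, and the 6 lines did not pass the test (adjusted p = 0.0789). Fdft1 did, with adjusted p = 0.0139, and Lss did not (adjusted p = 0.206).

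Among the steps after lanosterol, Cyp51, the demethylase that starts them, was 69.1 and 72.6 RPM in GSC_1, 56.4 and 57.7 in GSC_2, 77.9 and 78.25 in GSCLC_1, 48.9 and 35 in GSCLC_2, 70.7 and 67.4 in GSCLC_3, and 52.6 and 73.2 in GSCLC_4. GSCLC_1 lay above and GSCLC_2 below all 10 other libraries (adjusted p = 0.0222 among 6 lines and 0.0215 among GSCLC lines). Sc4mol, which removes the methyl groups of the ring, was 89.6 and 81.2 RPM in GSC_1, 51.9 and 83.9 in GSC_2, 56.2 and 64.5 in GSCLC_1, 43.6 and 44.6 in GSCLC_2, 121 and 83.8 in GSCLC_3, and 76.4 and 63.3 in GSCLC_4. GSCLC_2 was again below all 10 others, and GSCLC_3 was the highest line though its replicate 2 lay within the GSC range (adjusted p = 0.00823 among 6 lines and 0.00978 among GSCLC lines).

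Sc5d, the desaturase that acts late in the pathway, had its lowest line mean in GSCLC_2 (11 RPM) and its highest in GSC_2 (24.6 RPM), with adjusted p = 0.058 among lines. Nsdhl and Hsd17b7, which act with Sc4mol, lay at 23.5 to 42.3 RPM and 19 to 37.5 RPM, and GSCLC_2 was the lowest line for both. The isomerase Ebp (3.69 to 11 RPM) and Dhcr7 (5.14 to 10.6 RPM) rested on as few as 14 and 18 reads, and their order differed: Ebp was lowest in GSC_2, below all 10 other libraries, and Dhcr7 was lowest in GSCLC_1. None of these 5 genes passed the test among 6 lines.

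Sc4mol and Mvd lie on chromosome 8 of GRCm38, at 64718123 to 64733578 and 122433596 to 122443422. In GSCLC_3 the median log2 difference from the GSC mean was 0.41 over the 631 tested genes of chromosome 8, and -0.15 to -0.03 over autosomes other than 6 and 8. In GSCLC_1, GSCLC_2 and GSCLC_4 the chromosome 8 medians were -0.02, -0.03 and 0.05. In GSCLC_3, Sc4mol stood at 0.42 ± 0.19 (adjusted p = 0.147) and Mvd at 0.03 ± 0.22 (adjusted p = 0.947) relative to the GSC mean. The part of the chromosome-wide difference in these 2 values was not tested. GSCLC_2 and GSCLC_4 had medians of 0.31 and 0.38 over chromosome 6, which holds no member.

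Among the regulators, Srebf2, which encodes the sterol-directed SREBP, was steady within lines, at 189 and 183 RPM in GSC_1, 188 and 213 in GSC_2, 191.5 and 196 in GSCLC_1, 141 and 152 in GSCLC_2, 231 and 245 in GSCLC_3, and 215 and 239.5 in GSCLC_4. GSCLC_2 lay below all 10 other libraries, and the kinds of line overlapped. The adjusted p was 0.0106 among the 6 lines and 0.0077 among the GSCLC lines, and the log2 difference between kinds was 0.04 ± 0.18 (adjusted p = 0.945). Srebf1 did not follow it: at 50.4 to 93.8 RPM, its line mean was highest in GSCLC_2 (89.7 RPM) and lowest in GSCLC_3 (60.5 RPM, both libraries below the other 10), with adjusted p = 0.147 among lines.

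Scap ranged from 78.2 to 152 RPM, highest in GSCLC_3, where both libraries exceeded the other 10, and lowest in GSCLC_4 (adjusted p = 0.0932 among lines). Insig1 missed the threshold among lines (adjusted p = 0.0531), as did its relative Insig2, at 12.3 to 29.7 RPM (adjusted p = 0.0702). Stard4, which carries cholesterol between membranes, was 64.2 and 57.7 RPM in GSC_1, 43.6 and 46.7 in GSC_2, 36.8 and 35 in GSCLC_1, 40.4 and 33.1 in GSCLC_2, 55.4 and 44.7 in GSCLC_3, and 56.1 and 58 in GSCLC_4. GSCLC_1 and GSCLC_2 lay below the other 8 libraries (adjusted p = 0.0223 among 6 lines).

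Among the fatty acid genes, Acly, which makes the acetyl-CoA used by both pathways from citrate, had the smallest adjusted p of all members among the lines. It was 254 and 236 RPM in GSC_1, 227 and 271 in GSC_2, 281 and 337 in GSCLC_1, 419 and 432 in GSCLC_2, 191 and 182 in GSCLC_3, and 323 and 382 in GSCLC_4. GSCLC_2 lay above and GSCLC_3 below all 10 other libraries, while GSC_1 overlapped GSC_2 and GSCLC_1 overlapped GSCLC_4. The adjusted p was 8.89e-05 among the 6 lines and 1.66e-04 among the GSCLC lines, and the highest adjusted p over the alternatives was 0.0177. Fasn, the synthase that builds palmitate, stayed within 172.5 to 240.5 RPM, with an SD between lines of 0.08 against 0.17 within a line on the log2 scale (adjusted p = 0.815). Scd1 and Scd2 varied as much within a line as between lines, with within-line SDs of 0.51 for each, and Scd2 in GSCLC_2 was 10.8 RPM in one replicate and 24 in the other.

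**Figure D4:**
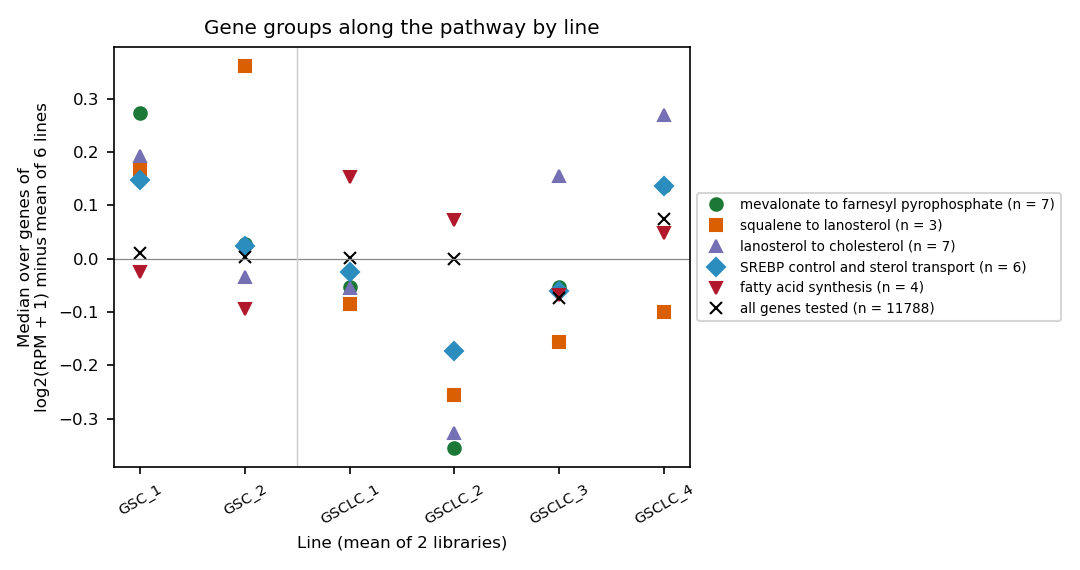
Each symbol is the median over a group's genes of the line mean of log2(RPM + 1) minus the mean of the 6 lines, and crosses are all 11788 genes. The 3 sterol groups lie between -0.36 and -0.26 in GSCLC_2, where all genes lie at 0 and the fatty acid genes at 0.07.

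Seen by group, GSCLC_2 had the lowest median of the 6 lines in each of the 3 stretches of the sterol pathway. Its median deviation from the 6-line mean was -0.36 over the 7 mevalonate genes, -0.26 over the 3 ring-forming genes, -0.33 over 7 tested genes after lanosterol, -0.17 over the 6 regulatory and transport genes and 0.07 over the 4 fatty acid genes. The fatty acid group holds Acly and Scd2 at opposite ends, so its median describes neither. GSC_1 was at 0.27, 0.17 and 0.19 in the 3 sterol groups, and GSC_2 at 0.03, 0.36 and -0.03. The mean Pearson r over pairs of the 17 sterol enzymes was 0.23 across the 6 line means and 0.13 across the 6 differences between replicates, against 0.02 and 0.02 over all pairs of tested genes. Pairs share libraries and lines, and these are descriptions over 6 points.

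Set against the mean of both GSC lines on single libraries, 10 members fell and 1 rose in GSCLC_2, or 11 of 27 (40.7%). Of all genes 11.7% were called, 6.26% lower and 5.47% higher. The 10 were Hmgcs1 (-0.75 ± 0.16, limma adjusted p = 0.00396), Mvd (-1.01 ± 0.22, adjusted p = 0.00479), Fdps, Fdft1, Sqle, Cyp51, Sc4mol, Sc5d, Srebf2 and Insig1, the last 8 with adjusted p = 0.0128 to 0.0341. The log2 differences of those 8 ran from -0.40 ± 0.12 for Srebf2 to -0.94 ± 0.25 for Insig1. Acly rose by 0.78 ± 0.12 (adjusted p = 3.50e-04). The median over members was -0.40, and -0.49 over sterol enzymes, where the median over all genes was -0.004. The number called rested on both cultures of the line: it was 3 without GSCLC_2 replicate 1, 4 without replicate 2 and 4 without GSC_2 replicate 2, while the member median stayed at -0.42, -0.33 and -0.37. With a constant in place of a trended prior variance, 3 members were called, Mvd, Hmgcs1 and Acly.

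**Figure D5:**
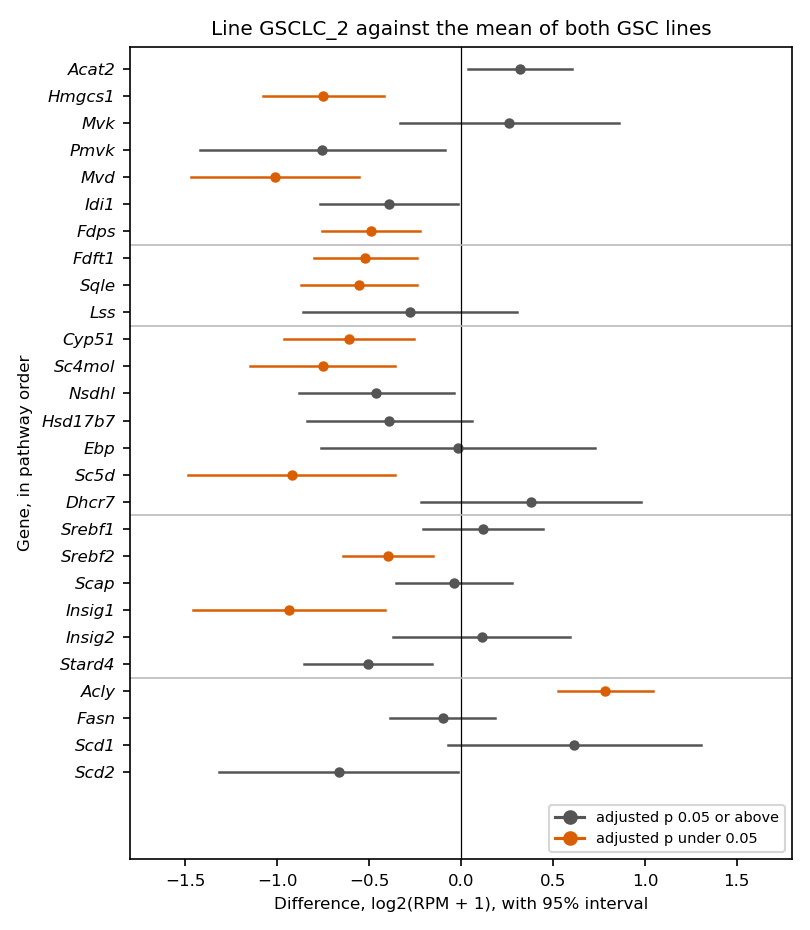
Points are log2(RPM + 1) differences between GSCLC_2 and the mean of both GSC lines, with 95% intervals from limma on single libraries, and orange marks an adjusted p under 0.05. The 10 orange points left of 0 include 8 sterol enzymes, Srebf2 and Insig1, and the only orange point on the right is Acly.

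The other GSCLC lines, compared with those same GSC libraries, had fewer members called. GSCLC_1 had 0 members called (6.94% of all genes were called) and a member median of -0.11. GSCLC_3 had 2, Lss (-0.89 ± 0.28, adjusted p = 0.0382) and Acly (-0.40 ± 0.12, adjusted p = 0.034), where 14.3% of genes were called and 9.09% were called lower, with a member median of -0.19 against -0.07 for all genes. GSCLC_4 had 2 as well, Fdft1 (-0.59 ± 0.13, adjusted p = 0.00493) and Acly (0.51 ± 0.12, adjusted p = 0.00819), where 16.0% were called, and its member median was 0.01 against 0.06. GSC_2 against GSC_1 gave 0 members (0.0509% of genes were called) and a median of -0.05.

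Against the other 3 GSCLC lines, a comparison added after seeing the data, 4 of 27 members differed in GSCLC_2, where 1.70% of genes did, 0.865% lower and 0.831% higher. Srebf2 (-0.58 ± 0.11, adjusted p = 0.00989), Cyp51 (-0.73 ± 0.16, adjusted p = 0.0201) and Sc4mol (-0.75 ± 0.18, adjusted p = 0.0313) were lower, and Acly (0.64 ± 0.12, adjusted p = 0.0072) was higher. With either GSCLC_2 replicate left out, 0 members passed. Each other GSCLC line was set against the remaining 3 in the same way. In GSCLC_3 Sc4mol was higher (0.81 ± 0.18, adjusted p = 0.0078) and Acly lower (-0.94 ± 0.12, adjusted p = 5.63e-05). These were 2 of 27 members (7.41%), a share close to the 7.63% of genes called. GSCLC_1 and GSCLC_4 had 0 members, where 0.458% and 6.53% of genes were called. Both libraries of GSCLC_2 were below the other 10 libraries for 5 members, Hmgcs1, Mvd, Cyp51, Sc4mol and Srebf2, when this held for 2.97% of genes, and above them for Acly (2.79%). In GSCLC_3 both libraries lay below the other 10 for Srebf1 and Acly (6.91% of genes) and above them for Scap (3.84%), in GSC_2 below for Ebp (3.16%) and above for Fdft1 (4.34%), and in GSCLC_1 above for Cyp51 (2.17%). At 1 or 2 of 27 members each, these separations in GSCLC_3, GSC_2 and GSCLC_1 were near the shares of all genes. Fibroblast markers in GSCLC_2 summed to 326 and 472 RPM, against 419 to 660 RPM in the other GSCLC libraries, and germ cell markers to 3454 and 3271 RPM against 3504 to 3941 RPM. Their part in the GSCLC_2 values was not tested.

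The lines of condition 2, GSCLC_2 and GSCLC_3, had sterol enzyme sums of 1021 and 1247 RPM, against 1191 and 1250 RPM in GSCLC_1 and GSCLC_4 of condition 1. Between the conditions 0 of 27 members and 0 of 11788 genes (0%) passed in limma, and 2 members and 4.68% of genes had an unadjusted p under 0.05. Sc5d was -0.73 ± 0.27 lower in condition 2 and Sqle -0.39 ± 0.15, and Scap was 0.35 ± 0.17 higher, all with adjusted p = 0.933. Estimates were negative for 20 of 27 members and 62.1% of all genes, with medians of -0.16 and -0.07. Line means of the conditions did not overlap in either direction for 8 of 27 members, a share close to the 30.9% of all genes.

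Genes that neighbour the pathway were read from 5 further lists. In the list of sterol uptake, export, storage and sensing, Trib1 fell in GSCLC lines and 0 genes rose, where 1.81% of all genes fell and 1.21% rose. Trib1, a pseudokinase that restrains liver lipid synthesis, was 23.4 to 36.2 RPM in GSC and 6.52 to 16.7 RPM in GSCLC libraries, without overlap (-1.36 ± 0.24, adjusted p = 0.0124), a call lost with no filter on low values and without line GSC_1 or GSC_2 (adjusted p up to 0.196). The call held with the GSC lines taken from replicate 2 alone (adjusted p = 0.011), and the part of other cell types in it was not tested. Over the 20 tested genes of that list 15 estimates were negative, with a median of -0.09.

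Of 26 tested genes of further fatty acid synthesis and handling, 2 fell and 0 rose, and 16 estimates were negative with a median of -0.13. Mlxipl, which encodes the sugar-responsive lipogenic factor ChREBP, was 33.5 to 45 RPM in GSC and 11.5 to 24 RPM in GSCLC libraries (-1.30 ± 0.19, adjusted p = 0.00589, and up to 0.14 without line GSC_1 or GSC_2). Lpin1, a phosphatidate phosphatase of glyceride synthesis, was 43.1 to 55.4 and 15.1 to 31.5 RPM (-1.0 ± 0.20, adjusted p = 0.0252), and missed the threshold with the GSC lines taken from replicate 2 alone (adjusted p = 0.0551), with no filter on low values, with no trend in the prior variance, without GSCLC_4 replicate 2 and without line GSC_1, GSC_2, GSCLC_1 or GSCLC_2 (adjusted p up to 0.273). Neither gene's libraries overlapped between the kinds. None of 6 genes of other sterol synthesis, 9 of fatty acid oxidation or 6 of prenylation passed, at medians of -0.01, -0.28 and 0.08.

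Among the 6 lines, where 20.0% of all genes differed, 2 of the 6 other sterol synthesis genes did so, Acat1 and Arv1 (adjusted p = 0.0165 and 0.0453), and so did 8 of the 20 uptake genes, among them Trib1, Mbtps1, Abca1, Erlin2 and Lipa (adjusted p = 0.0016 to 0.0174). So did 13 of the 26 fatty acid genes, led by Mlxipl, Lpin1, Dgat2, Elovl6, Tecr and Slc25a1 (adjusted p = 0.00188 to 0.00768), and 4 of the 9 oxidation genes, Hadhb, Hadh, Hadha and Acadl (adjusted p = 0.0134 to 0.0406). Of the 6 prenylation genes 0 did. Mbtps1 (270.5 and 292 RPM), Erlin2 (138 and 137.5 RPM), Tecr (399.5 and 414 RPM) and Arv1 (42.7 and 35 RPM) were each highest in GSCLC_3. The part of the chromosome-wide differences in the values of the listed genes was not tested. Abca1, which exports cholesterol, was 51 to 82.5 RPM in GSC and 16.4 to 53.4 RPM in GSCLC libraries, lowest in GSCLC_2 at 24.1 and 16.4 RPM, and the difference between kinds was -0.94 ± 0.24 (adjusted p = 0.0643).

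Reads at the annotated 3′ ends of Hmgcs1, Fdft1, Lss, Cyp51, Scap and Srebf1 may include those of genes on the opposite strand, Gm48342, Ctsb, 4930483K19Rik, Akap9, 5830462I19Rik and Rai1 in that order, if counting did not use strand. The sources used here do not say.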

How the data were processed

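The authors deposited 1 table of RPM for 26219 genes in 12 libraries, per the file headers. Cutadapt 1.3, TopHat 1.4.1, Cufflinks 2.2.0 and build mm10 (GRCm38) are named, per the submitters' processing notes, without their roles. Between 99.7% and 99.8% of RPM values above 0 were whole multiples of a step within 0.1, which gives the implied reads. RPM were used as log2(RPM + 1), so fold changes of low genes are understated, and a gene was kept if 2 or more libraries reached 5 RPM. Kinds and conditions were tested by limma 3.58.1 (R 4.3.3) on the mean of 2 libraries per line, and single lines on libraries, with a trended prior variance, two-sided p-values and Benjamini-Hochberg adjustment over 11788 genes at 0.05. The scripts were tested on simulated data. Members, lists, motifs and tests were chosen with earlier results of these data known. All members are named, with up to 6 called genes per other list and comparison, and results for some listed genes are not reported here. Other pseudocounts, filters, scalings, priors and left-out libraries were tried. Promoters came from RefSeq and shared 3′ ends (the last 300 bases, in stretches of 50) from GENCODE M21.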

Additional observations from a re-analysis of the deposited data

Results flagged for a closer look

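The 4 GSCLC line means of each of the 27 members were checked for a line far from the other 3 on the log2 scale. For Hmgcs1, the lowest line GSCLC_2 was separated from the next by 0.874 of the whole range, and for Dhcr7 the lowest line GSCLC_1 by 0.864, both past Dixon's critical value for 4 values. Chance flags about 1 in 20 such groups. Dhcr7 measured 5.14 and 5.91 RPM in GSCLC_1 and 8.2 to 10.6 RPM in the other GSCLC libraries, and rested on 18 to 42 reads per library.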

How the results depend on the processing

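Between GSCLC and GSC lines the 356 genes called became 142 with no filter on low values, 212 with a 20 RPM filter and 645 with line as a random effect, and ran from 13 to 533 with 1 library or line left out (41 without line GSC_1, 13 without GSC_2, 211 without GSCLC_1 and 209 without GSCLC_2). The 0 members called became 1, Fdps, with the random effect and with GSC replicate 2 alone, and 0 to 2 on leaving out. Between conditions 0 genes became 0 to 11. Among 6 lines the 2362 genes became 1181 with no filter and 1334 with no trend, and the 9 members 3, 1 and, on leaving out, 5 to 12. Among GSCLC lines the 1077 genes became 458, 461 and 710 to 1162, and the 5 members 2, 1 and 3 to 8. For GSCLC_2 against GSC, 1383 genes became 811 with no filter and 416 to 1478 on leaving out, and 11 members became 5 with no filter, 3 with no trend and 3 to 12. For GSCLC_2 against other GSCLC lines, 200 genes became 71, 56 and 8 to 268, and 4 members 2, 0 and 0 to 5. The cause of these shifts was not tested.

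With the replicate number as a block, 592 genes and 1 member (Fdps, adjusted p = 0.0464) were called between kinds. Over all tested genes, deviations of same-numbered libraries correlated at -0.12 to 0.11 over 15 pairs of lines, 2 of them over 0.1. Such correlations cannot exclude a shared replicate difference in single genes. Clu, at 75.3 and 19.6 RPM in GSC_1 and 130 and 26 RPM in GSC_2, was higher in replicate 1 of both, as was Cyp11a1.

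The sign between kinds changed on leaving out 1 library or line for Pmvk (-0.46 to 0.036), Idi1 (-0.29 to 0.18), Cyp51 (-0.21 to 0.13), Ebp (-0.31 to 0.45), Srebf2 (-0.052 to 0.18), Scap (-0.16 to 0.068), Insig2 (-0.27 to 0.12) and Fasn (-0.039 to 0.072), and for Insig2 with GSC replicate 2 alone (0.10). Depth limits Pmvk, Ebp, Dhcr7, Mvk and Lss, whose lowest libraries held 13 to 23 reads. Without line GSCLC_3, Acly passed between kinds (adjusted p = 0.0488).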
